A study of Vanessa cardui and Junonia coenia with 16 samples.

Results

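The comparison described here set the hindwing of the common buckeye butterfly, Junonia coenia, against its forewing in animals labelled as optix knockouts, to ask which transcripts differ in abundance between the wings when optix is disrupted. It held 4 RNA-seq libraries, 2 of knockout hindwings and 2 of knockout forewings, out of 16 libraries in the series. Members were assembly components, each the summed FPKM (fragments per kilobase of transcript, scaled to the library's mapped fragments) of all rows that share the DN and c numbers of a Trinity identifier. Of 124280 components, which together hold 182199 rows, 16901 averaged 1 FPKM or more across the 4 knockout libraries and were tested. The value nearest below that limit was 0.9995 FPKM and the lowest value kept was 1 FPKM, and 46698 components were above 0 in at least 1 of the 8 J. coenia libraries. The hindwings carry the label optix knockout, and the forewings the label optix knockout with large defects. All were taken late in pupal life at the stage the labels call melanin, from a laboratory colony, and the 2 wild-type hindwing and 2 wild-type forewing libraries of the same colony and stage served for the comparison between genotypes. The share of knockout cells in each wing was not measured, and the labels do not say whether a hindwing and a forewing library of one number came from one animal. Only the knockout forewing label names large defects. In the comparisons below, wing and the labelled extent of defects therefore cannot be told apart. Replicates are biological, per the labels.

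Optix is a homeodomain transcription factor of the sine oculis family. In nymphalid butterflies it is known for promoting orange and red ommochrome pigments in wing scales, and in the buckeye also for its bearing on structural blue. Butterfly hindwings differ from forewings in the expression of Ultrabithorax, a Hox transcription factor that is present in the developing hindwing and known to direct hindwing identity. Scales of both wings lay down ommochromes and then melanins late in pupal development. The deposited table does not pair identifiers with gene names, and 0 of its identifiers matched the 15000 genes of the Vanessa cardui reference table. Neither optix, Ultrabithorax, the pigment genes nor markers of wing scale cells could therefore be followed, and the components named below are given by identifier, at most 2 in each direction per comparison.

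The libraries of one number resembled each other more than the libraries of one wing. Across the tested components, hindwing 1 correlated with forewing 1 at 0.941 and hindwing 2 with forewing 2 at 0.931 (Pearson's r of log2(FPKM + 1), a description across components, which share libraries and depth). The 2 knockout hindwings correlated with each other at 0.826 and the 2 knockout forewings at 0.849. The number of reads is not known from FPKM, but low values gave relative depths of 2.69 and 3.29 for knockout hindwings 1 and 2 and 2.13 and 2.85 for knockout forewings 1 and 2, with the shallowest wild-type library at 1.0. The hindwing library was thus the deeper within each number. Total FPKM was 1023181 and 733443 in the hindwings and 997686 and 806302 in the forewings, and the 10 most abundant components held 39.0% and 29.2% of it in the hindwings and 38.9% and 34.1% in the forewings. The part of depth in the results below was not tested. With the libraries rescaled to a common total, by median of ratios or by quantile normalization, 0 components were called (limma) in either comparison below.

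No component differed between knockout hindwings and forewings past the threshold. Of 16901 components 0 (0%) were called by limma at an adjusted p of 0.05, with a smallest adjusted p of 0.9999. At an unadjusted p under 0.05 there were 281 (1.66%), 141 higher in the hindwing (0.834%) and 140 lower (0.828%). With no difference anywhere, 5% of tests would be expected there. The hindwing minus forewing difference had a median of 0.00666 on the log2(FPKM + 1) scale and a median size of 0.244. The median half-width of its 95% interval (limma, n = 2 libraries per wing) was 1.22 (log2) over all components and 0.943 over the 5904 components with a mean of at least 10 FPKM. These intervals leave room for differences of about that size in either direction, so the lack of calls does not show that the wings were alike. In bulk tissue a smaller number of cells of one kind and less RNA per cell cannot be told apart.

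The spread that the test works against was the spread between numbers. Within number 1 the wings differed by at least 1 (log2, a factor of 2 for abundant components) in 11.3% of components, and within number 2 in 13.1%. Between the 2 hindwings 27.3% differed by that much, and between the 2 forewings 24.1%. The contrast was wider at means of 10 to 1000 FPKM. At means of 10 to 100 FPKM, 2.94% of components differed by at least 1 between the wings within number 1 and 5.81% within number 2, against 22.2% between the hindwings and 16.9% between the forewings. At 1000 FPKM or more, 0 of 76 components differed by at least 1 between the wings within number 1 and 8 did within number 2, while 20 did between the hindwings and 12 between the forewings.

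**Figure D1:**
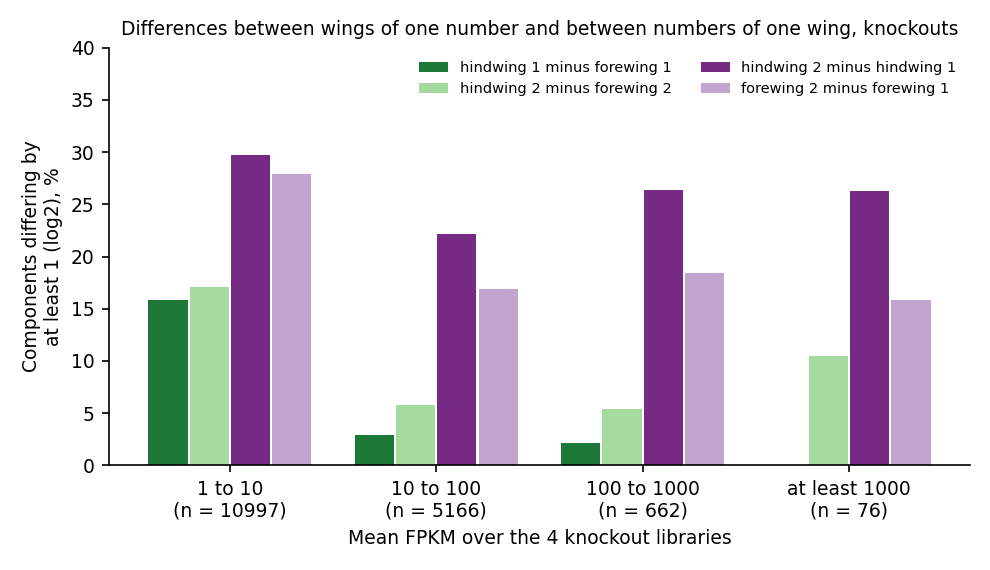
Share of components (%, y axis) that differed by at least 1 on the log2(FPKM + 1) scale, by mean FPKM over the 4 knockout libraries (x axis, with the number of components). Green bars compare hindwing with forewing within one number and purple bars compare the 2 libraries of one wing; each bar is 1 pair of libraries, with no error. The purple bars are higher in every class, at 22.2% and 16.9% against 2.94% and 5.81% for means of 10 to 100 FPKM.

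The fourth most abundant component shows this spread. Its summed FPKM, over 18 rows, was 73454 in hindwing 1 and 265.6 in hindwing 2, against 69701 in forewing 1 and 121.6 in forewing 2. The wings differed by 0.076 (log2) within number 1 and by 1.12 within number 2, while number 2 minus number 1 was -8.11 (log2) in the hindwing and -9.15 in the forewing. The gap between numbers was smaller in the wild types, and of the other sign: hindwings 1 and 2 held 39150 and 123238 FPKM and forewings 1 and 2 held 41989 and 101400 FPKM. Among the 76 components with a mean of at least 1000 FPKM, 4 differed by at least 2 (log2) between numbers in the same direction in both wings, and 0 differed by at least 2 between the wings within both numbers.

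Differences within equal numbers were set side by side, since hindwing 1 minus forewing 1 and hindwing 2 minus forewing 2 share no library. Of the 16901 components, 4375 were higher in the hindwing within both numbers, 4288 were lower within both, 7545 went opposite ways and the rest had a difference of exactly 0. The 2 differences correlated weakly across components, with a Spearman's rho of 0.0724 over all, 0.177 for means from 10 FPKM up and 0.384 for means from 100 FPKM up (738 components). This correlation thus increased with abundance over these nested classes, but agreement in sign did not increase throughout. The 2 pairs had the same sign in 8663 of all 16901 components and in 2850 of 5166 at means of 10 to 100 FPKM. They did in 410 of 662 at 100 to 1000 FPKM and in 41 of 76 from 1000 FPKM up. In 3761 components (22.3%) the wings did not overlap, with the hindwing higher in 1940 (11.5%) and lower in 1821 (10.8%). With so few libraries per wing, such a separation is common without a difference between the wings. A difference of at least 1 in one direction within both numbers was found in 180 components with the hindwing higher (1.07%) and in 150 with the hindwing lower (0.888%), and in 270 the 2 numbers differed by at least 1 in opposite directions.

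**Figure D2:**
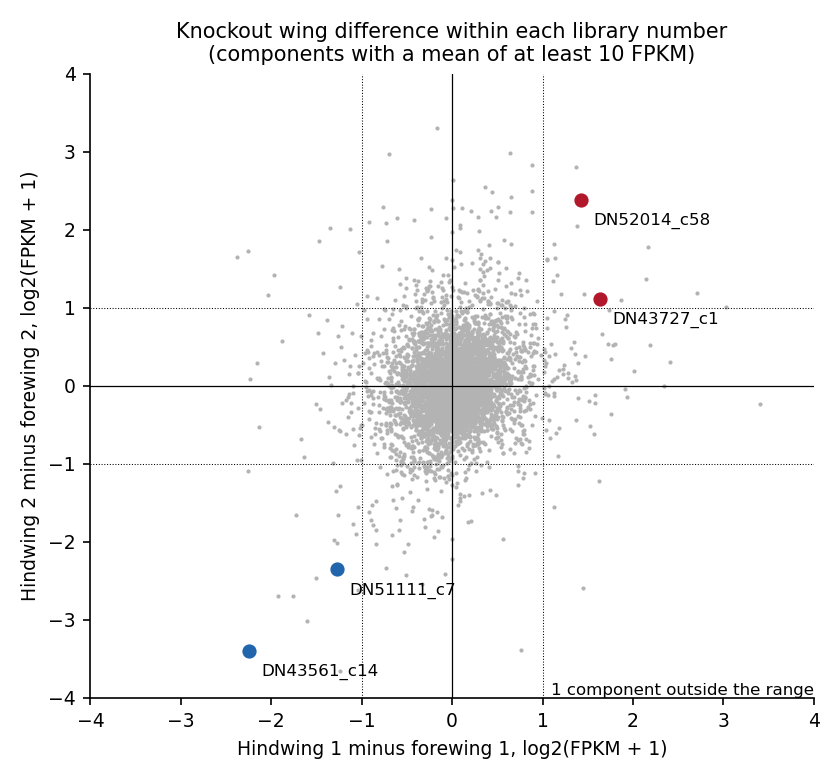
Hindwing minus forewing within number 1 (x axis) and within number 2 (y axis), both on the log2(FPKM + 1) scale, for the 5904 components with a mean of at least 10 FPKM (grey); dotted lines mark a difference of 1 in either direction. Named components are red where higher and blue where lower in the hindwing, and 1 component outside the plotted range lies at 10 on the x axis and 0 on the y axis. Most points lie near the centre, and 18 components in the upper right and 18 in the lower left corner pass the dotted lines in both numbers.

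The 2 components named as higher in the hindwing were not called. Components named for the wing difference were chosen among those whose wings did not overlap, so their separation is no finding. TRINITY_DN43727_c1, the sum of 2 rows, was at 20.5 and 17.9 FPKM in knockout hindwings 1 and 2 and at 5.91 and 7.77 FPKM in knockout forewings 1 and 2. The wings did not overlap, and the libraries of each wing lay close together. Its difference was 1.37 (log2, SE 0.31, adjusted p = 0.9999, limma), with 1.64 within number 1 and 1.11 within number 2. Both rows were higher in the hindwing within both numbers, at 11.7 and 8.96 FPKM in hindwings against 1.22 and 4.37 FPKM in forewings for g1, and at 8.77 and 8.95 against 4.69 and 3.40 FPKM for g2. In the wild types the component was at 9.46 and 4.02 FPKM in hindwings and 7.39 and 3.89 FPKM in forewings, so a wing gap of that size was seen in the knockouts and differences of 0.32 and 0.038 (log2) in the wild types. The change of the gap with genotype was itself 1.20 (log2, SE 0.73) and not called (adjusted p = 1, limma).

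TRINITY_DN52014_c58, a component of 1 row, was at 125 and 73.7 FPKM in knockout hindwings 1 and 2 and at 46.1 and 13.4 FPKM in knockout forewings 1 and 2. Number 1 was the higher in each wing, and the lower hindwing stayed above the higher forewing. The difference was 1.90 (log2, SE 0.67, adjusted p = 0.9999, limma), 1.42 within number 1 and 2.38 within number 2. Without knockout forewing 2 it was 1.04. The component is 1 of 87 with that DN number, of which 81 were tested, and the sum over all 87 differed in the other direction, by -0.084 (log2, SE 0.69). Wild-type hindwings 1 and 2 were at 56.3 and 8.20 FPKM and wild-type forewings 1 and 2 at 13.4 and 21.4 FPKM, so the wild-type pairs went opposite ways.

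TRINITY_DN43561_c14, a component of 1 row, had the lowest hindwing minus forewing difference of all tested components. It was at 24.4 and 8.91 FPKM in knockout hindwings 1 and 2 and at 120 and 104 FPKM in knockout forewings 1 and 2. It was listed at 0 in all 4 wild-type libraries. The wild-type libraries were the shallower ones, at relative depths of 1.0 to 1.59, and components were kept by their knockout values alone. The part of either in these zeros was not tested. The wings were far apart and the forewings close to each other. The difference was -2.83 (log2, SE 0.52, adjusted p = 0.9999, limma), -2.25 within number 1 and -3.40 within number 2. Over all 16901 tested components, 4288 were lower in the hindwing within both numbers and 4375 were higher. TRINITY_DN43561_c14 is itself among the 11 tested components with its DN number. Of these 11, 6 were lower in the hindwing within both numbers, 3 were higher and 2 went opposite ways. The next lowest of these was at 26.8 and 2.90 FPKM in knockout hindwings and 64.6 and 48.3 FPKM in knockout forewings. In the wild types it was at 16.2 FPKM in hindwing 1 and 74.4 FPKM in forewing 1, and listed at 0 in hindwing 2 and forewing 2. The sum over the DN number was lower in the knockout hindwing by a smaller amount, at -1.61 (log2, SE 0.43), and was not called.

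TRINITY_DN51111_c7, with 2 of its 6 rows above 0, was at 10.3 and 4.78 FPKM in knockout hindwings 1 and 2 and at 26.3 and 28.6 FPKM in knockout forewings 1 and 2. Again the forewings lay together and the hindwings below them. The difference was -1.82 (log2, SE 0.42, adjusted p = 0.9999, limma), -1.28 within number 1 and -2.35 within number 2, and the sum over the DN number was at -1.01. The wild types had the same order within each number, with 10.7 and 4.46 FPKM in hindwings 1 and 2 and 16.3 and 10.1 FPKM in forewings 1 and 2.

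**Figure D3:**
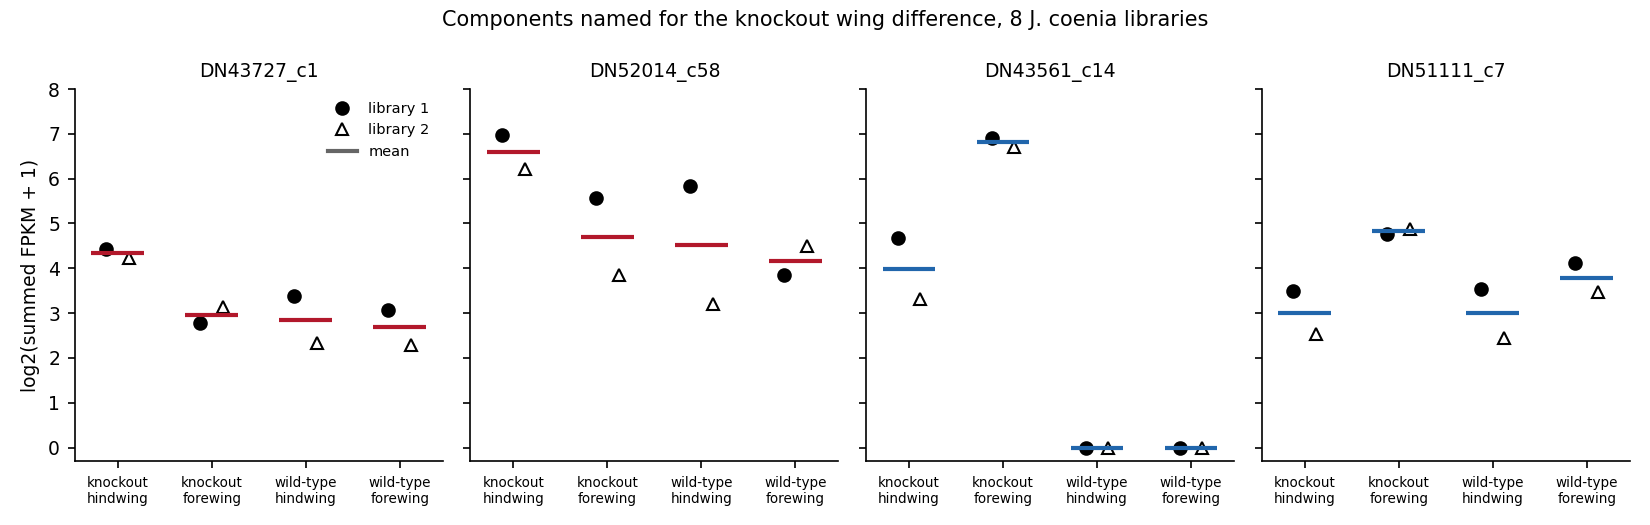
Level of the 4 named components (y axis, log2 of summed FPKM + 1) in each J. coenia library, by group (x axis); circles are library 1, triangles library 2 and lines the mean of 2 libraries, red for components higher and blue for components lower in the knockout hindwing. In each panel both knockout hindwings lie on one side of both knockout forewings, as the rule for naming required. TRINITY_DN43561_c14 is at 0 in every wild-type library.

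Of the 5904 components with a mean of at least 10 FPKM, 18 were higher and 18 lower in the knockout hindwing by at least 1 (log2) within both numbers, and their wild-type values, which did not choose them, can be set beside this. Of the 18 that were higher, 9 were also higher in both wild-type hindwings than in the wild-type forewings of the same number and 2 were lower in both, where 26.4% and 25.5% of all 5904 were. Of the 18 that were lower, 8 were lower in both wild-type pairs and 0 were higher in both. Among the lower ones 11 had under 2 FPKM in both wild-type libraries numbered 2, as did 341 of the 5904 (5.78%). Of these 11, 7 were also lower by at least 1 in wild-type hindwing 1 than in wild-type forewing 1, and of the 341, 36 were. Both conditions together thus held for 7 of the 18 and for 0.61% of the 5904. The bound of 2 FPKM and the joining of the conditions were not set in advance. The contrast with the 5904 is therefore a description and no test. These components are not separate items: 6 of the 18 lie on 2 DN numbers, and those 6 make up 6 of the 11 and 5 of the 7. Among the higher ones 5 had under 2 FPKM in both.

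Only 5 components with a mean of at least 100 FPKM differed by at least 1 in one direction within both numbers, and they were chosen here after their values were seen. The component at rank 409 in mean FPKM was at 408 and 192 FPKM in knockout hindwings 1 and 2 and at 91.4 and 73.9 FPKM in knockout forewings 1 and 2, a difference of 1.76 (log2, SE 0.45). It had the same order at a higher level in the wild types, with 1829 and 2176 FPKM in hindwings and 363 and 755 FPKM in forewings, and the hindwing was the higher in all 4 pairs. The component at rank 112 was at 451 and 211 FPKM in knockout hindwings and 1116 and 831 FPKM in knockout forewings, a difference of -1.64 (log2, SE 0.47). Wild-type hindwing 1 held 262 FPKM of it and wild-type forewing 1 held 578 FPKM, while hindwing 2 held 1.08 FPKM and forewing 2 held 1.68 FPKM. The component at rank 391 was at 355 and 218 FPKM in hindwings and 162 and 61.0 FPKM in forewings of the knockouts, whereas its wild types held 84.8 and 63.7 FPKM in hindwings and 106 and 85.4 FPKM in forewings. The other 2, at ranks 155 and 615, were higher in the hindwing within each number but further apart between numbers, with 25.4 and 1387 FPKM in knockout hindwings and 11.7 and 450 FPKM in knockout forewings for the first of them. None of the 5 was called.

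Of the 20 most abundant components, 13 differed by under 0.5 (log2) between the wings within both numbers. So did 53 of the 76 at means from 1000 FPKM up, 533 of the 738 from 100 FPKM up and 8249 of all 16901. The 20 thus did not stand out from these abundant classes by a small wing difference. Among the 20, 5 were higher in the hindwing within both numbers, 3 were lower and 12 went opposite ways. The most abundant component was at 98482 and 71174 FPKM in knockout hindwings and 95494 and 94960 FPKM in knockout forewings, a difference of -0.19 (log2, SE 0.56). The component at rank 8 was lower in the hindwing within both numbers, with 11165 and 7928 FPKM in knockout hindwings and 18450 and 17388 FPKM in knockout forewings. Its difference was -0.93 (log2, SE 0.43, adjusted p = 0.9999, limma), -0.72 within number 1 and -1.13 within number 2. Wild-type hindwings were at 6653 and 10899 FPKM and wild-type forewings at 13682 and 24870 FPKM, so the hindwing was the lower in all 4 pairs.

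**Figure D4:**
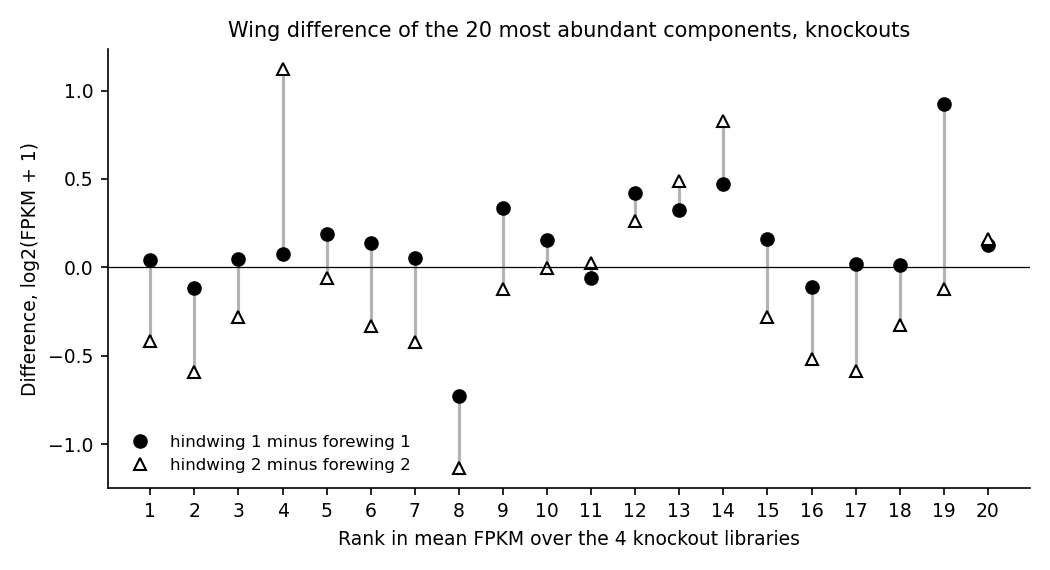
Hindwing minus forewing difference on the log2(FPKM + 1) scale (y axis) of the 20 most abundant components, by rank in mean FPKM over the knockout libraries (x axis), with circles for number 1 and triangles for number 2, joined by a grey line. The component at rank 8 lies at -0.72 and -1.13, and 12 of the 20 have the 2 differences on opposite sides of 0.

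Components present in one wing and listed at 0 in the other were few and low. In the hindwing 60 components (0.355%) were above 0 in both libraries and listed at 0 in both forewings, with a median of 2.93 FPKM and a highest value of 14.4 FPKM. In the forewing 57 (0.337%) were above 0 in both libraries and listed at 0 in both hindwings, with a median of 2.32 FPKM and a highest value of 12 FPKM. Of either set, 0 components reached 5 FPKM in both libraries of the wing. An exact 0 can be a failed estimate in FPKM tables. In the wild types 2 of the 60 and 1 of the 57 had the same pattern. Only 26 of the 60 and 21 of the 57 were above 0 in any wild-type library, so the others could not show it. Components were kept by their knockout values alone, and these passed that limit through the wing where they were present. The split by number was again the larger one, with 347 components listed at 0 in both libraries numbered 1 and above 0 in both numbered 2, and 239 the other way round. A component at rank 315 in mean FPKM was at 1023 FPKM in knockout hindwing 1 and listed at 0 in knockout hindwing 2 and both knockout forewings. In the wild types it was at 307 FPKM in hindwing 2 and listed at 0 in the other 3. It was thus seen in 1 hindwing library of each genotype and in no forewing. The only other component at 10 FPKM or more in 1 knockout library and listed at 0 in the rest, at rank 8796, went another way. That component was at 19.3 FPKM in knockout hindwing 2, and in the wild types at 7.17 FPKM in hindwing 2 and 33.3 FPKM in forewing 2.

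Whether the wing difference of the knockouts departs from that of the wild types was tested in one fit of all 8 J. coenia libraries, as the hindwing minus forewing difference in knockouts minus that in wild types. Of 16901 components 0 (0%) were called (limma, smallest adjusted p = 1), and 299 (1.77%) had an unadjusted p under 0.05, where 5% would with no difference. The median half-width of the 95% interval was 2.13 (log2), wider than for the knockout wings alone. Both knockout differences lay above or below both wild-type differences in 5849 components (34.6%). With so few pairs per genotype, such a separation is common without a difference between genotypes, so the share is not read as one. Across the 738 components with a mean of at least 100 FPKM, the mean wing difference of the knockouts and that of the wild types correlated at a Spearman's rho of 0.285, and across all components at 0.0584. Of these 738 components, 68 were higher and 120 lower in the hindwing in all 4 pairs, while 39 were higher in both knockout and lower in both wild-type pairs and 28 the reverse. Of the 5904 components with a mean of at least 10 FPKM, the counts in the same order were 498, 562, 319 and 369.

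TRINITY_DN56397_c0 and TRINITY_DN22513_c0 were named for a wing difference that was smaller in the knockouts. TRINITY_DN56397_c0 was at 52.0 and 29.8 FPKM in knockout hindwings and 39.9 and 30.7 FPKM in knockout forewings, against 13.3 and 8.69 FPKM in wild-type hindwings, and it was listed at 0 in both wild-type forewings. The knockout wings overlapped and the wild-type wings did not. The difference of differences was -3.39 (log2, SE 0.63, adjusted p = 1, limma), and -6.59 with a pseudocount of 0.1 in place of 1, so its size depends on the pseudocount. TRINITY_DN22513_c0 had 18.9 and 29.0 FPKM in knockout hindwings and 11.5 and 39.5 FPKM in knockout forewings, against 23.6 and 8.86 FPKM in wild-type hindwings and 0 in both wild-type forewings, a difference of differences of -3.84 (log2, SE 1.0, adjusted p = 1, limma), or -7.06 with a pseudocount of 0.1. Its 3 rows held equal values of 7.87 FPKM in wild-type hindwing 1 and of 3.84 FPKM in knockout forewing 1, so these rows could not be told apart there and only their sum is used.

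TRINITY_DN29993_c0 and TRINITY_DN71964_c0 were named for a wing difference that was higher in the knockouts. TRINITY_DN29993_c0 was at 8.62 and 1.54 FPKM in knockout hindwings and listed at 0 in both knockout forewings, against 6.93 and 4.0 FPKM in wild-type hindwings and 54.4 and 15.1 FPKM in wild-type forewings. The hindwing was thus above the forewing in knockouts and below it in wild types, and the difference of differences was 4.55 (log2, SE 1.19, adjusted p = 1, limma), or 7.66 with a pseudocount of 0.1. It averaged 2.54 FPKM in the knockouts and passed the limit of 10 FPKM through the wild-type forewings. TRINITY_DN71964_c0 was at 33.5 and 11.2 FPKM in knockout hindwings and 29.5 and 7.29 FPKM in knockout forewings, against 3.56 and 0.279 FPKM in wild-type hindwings and 18.5 and 24.2 FPKM in wild-type forewings. Its knockout wings overlapped, and the difference of differences was 3.57 (log2, SE 1.29, adjusted p = 1, limma).

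**Figure D5:**
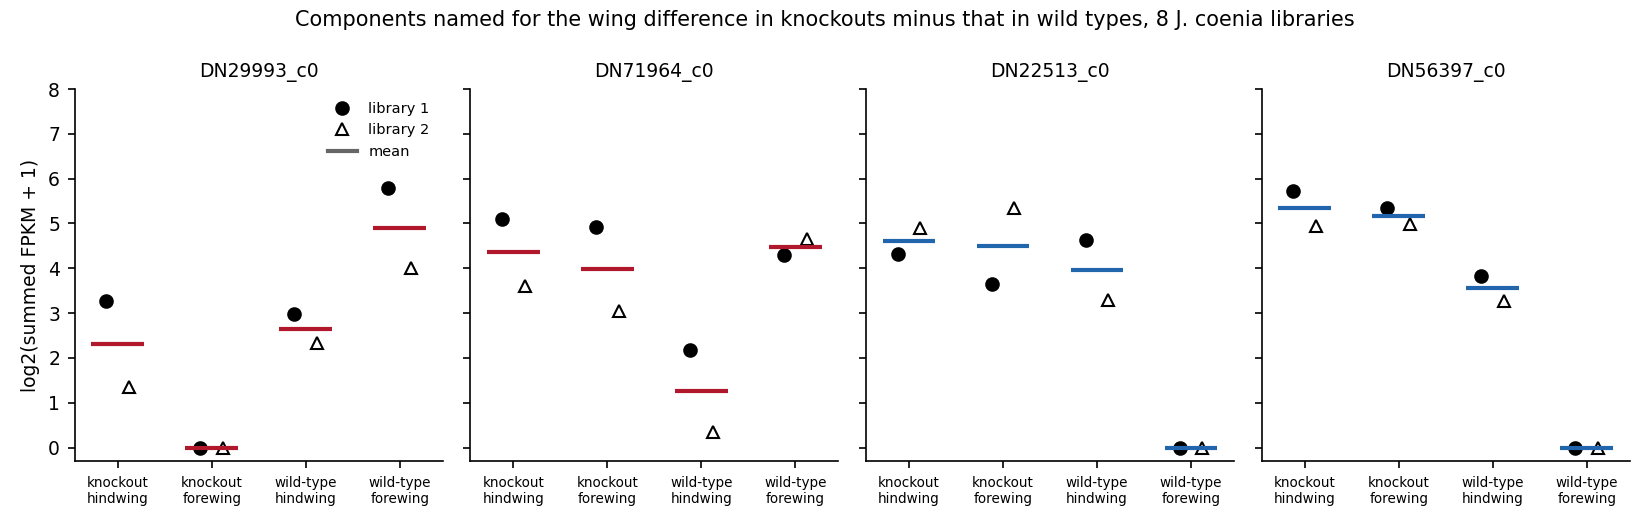
Level of the 4 components named for the wing difference in knockouts minus that in wild types (y axis, log2 of summed FPKM + 1) in each J. coenia library, by group (x axis); circles are library 1, triangles library 2 and lines the mean of 2 libraries. TRINITY_DN56397_c0 and TRINITY_DN22513_c0 are at 0 in both wild-type forewings, and TRINITY_DN29993_c0 is at 0 in both knockout forewings.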

How the data were processed

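RNA-seq of buckeye wings was used as the FPKM values per assembly row and library that the authors deposited. The submitters' processing notes name Bowtie2. How it was set, how FPKM was estimated and how the transcripts were assembled is not given in the sources used here. Dividing by the library total lets a few very abundant transcripts move all others. Rows were summed over the DN and c numbers, sums averaging 1 FPKM or more across the 4 knockout libraries were kept, and log2(sum + 1) was fitted with limma 3.58.1 in R 4.3.3, using moderated variances that follow a trend with the mean. P-values are two-sided, adjusted by Benjamini-Hochberg over 16901 components, and called at 0.05. A log2 difference on this scale understates that of low components. The wing fit used the 4 knockout libraries, the fit between genotypes all 8.

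Named components, 2 per direction, averaged 10 FPKM or more in the fitted libraries, with wings that did not overlap and the same sign within both numbers (for the fit between genotypes, both knockout differences on one side of both wild-type differences). They had the largest difference among those called, then with an unadjusted p under 0.01, then under 0.05. The components given by rank or by a shared DN number were chosen after their values were seen. Relative depth is the peak of the ratio of values under 0.6 FPKM between 2 libraries, fitted over 28 pairs by least absolute deviations, and the largest departure was 0.09 (log2). No read counts are known, so no counting interval is given. The members and lists were chosen with earlier results of these data known. The fits were tested on simulated data drawn independently for each library. The likeness of libraries with equal numbers was not part of that simulation. The V. cardui table was not used.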

Additional observations from a re-analysis of the deposited data

How the results depend on the processing

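No alternative gave a call by limma in the knockout wing comparison or in the comparison of the wing difference between genotypes. Tried were quantile normalization, median-of-ratios scaling, a pseudocount of 0.1, leaving the low components in, a limit of 5 FPKM, moderation without trend, rows not summed, sums over the DN number, a fit of all 8 libraries (wing comparison), a filter over 8 libraries (comparison between genotypes), a replicate block and leaving out each library. A common total per library and an estimated correlation were added after the data were seen. Counts at an unadjusted p under 0.05 in the wing comparison were 281 as reported, 200 with a pseudocount of 0.1 and 188 with all 8 libraries, and leaving out 1 library gave 0 calls each time, with 240 to 437 at that level. Such a fit leaves 1 library in an arm, which is assumed to vary like the other groups, and with a smallest adjusted p of 0.9999 from all 4 libraries its lack of calls says nothing about stability. Between genotypes leaving out 1 library gave 365 to 508, against 299.

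Whether the numbers pair the samples is not known. Replicate 2 minus replicate 1 correlated between the wings at 0.632 in knockouts and 0.685 in wild types across components. Between a knockout and a wild-type wing, which come from different animals, it correlated at 0.168 to 0.28. There are only 2 pairs per genotype, and what libraries of one number share was not tested. With the number as a replicate block 0 components were called (limma), with 1131 of 16901 (6.69%) at an unadjusted p under 0.05 and a smallest adjusted p of 0.727, and between genotypes 0 were called with 941. With the replicate block as an estimated correlation of 0.685 over 8 libraries 0 were called in either comparison, with 734 and 1052 at that level and smallest adjusted p of 0.121 and 0.13.

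Of 108 alternative values of the 8 named differences, 107 kept their direction and were not called. For the wing comparison the direction was largely fixed by the choice of components. Where wings do not overlap, neither leaving out a library nor another pseudocount can reverse the sign. A replicate block leaves the difference itself unchanged. The count therefore says little about stability. The sum over the DN number of TRINITY_DN52014_c58 had the opposite sign, at -0.084 (log2), since it holds 87 components. The median interval half-width was 1.34 (log2) at means of 1 to 10 FPKM, 0.937 at 10 to 100 FPKM and 1.21 from 1000 FPKM up, and the part of depth in it was not tested.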

Other observations

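The number of rows in a component went with the spread. Of the 16901 tested components 6215 had 1 row, 7779 had 2 to 4 rows and 2907 had 5 or more. The median interval half-width of the knockout wing difference was 1.34 (log2) for components of 1 row and 1.09 for those of 5 or more, and the share at an unadjusted p under 0.05 was 2.33% and 1.27%. Without summing, 27811 rows were tested, and 640 (2.30%) had an unadjusted p under 0.05, with 0 called by limma.

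Among the components with a mean of at least 1000 FPKM, 29 of 76 were lower in the knockout hindwing within both numbers and 12 were higher. Of the 738 with a mean of at least 100 FPKM, 270 were lower and 181 higher. Over all 16901 tested components, 4288 were lower and 4375 higher. The median difference of these 76 was -0.087 (log2), beside 0.00666 over all tested components, and it was 0.032 within number 1 and -0.171 within number 2, so the numbers went opposite ways. Total FPKM was higher in hindwing 1 than in forewing 1 and lower in hindwing 2 than in forewing 2. With each library rescaled to a common total the median over all components was 0.053, and with quantile normalization it was -0.017, so the sign of the median depends on the scaling.

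A pair of components with a lower hindwing in the knockouts had much the same order of values in both. These components, at ranks 1360 and 1983, which share a DN number, held 31.5 and 9.62 FPKM and 20.2 and 5.82 FPKM in knockout hindwings 1 and 2, against 109 and 68.0 FPKM and 79.4 and 43.2 FPKM in knockout forewings. In wild-type hindwing 1 they held 32.6 and 30.8 FPKM and in wild-type forewing 1 they held 97.9 and 102 FPKM, while both were at or under 0.147 FPKM in the wild-type libraries numbered 2. They were picked after their values were seen, and the cause was not tested.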
